A study of Capra hircus with 9 samples.

Results

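The genes that cut and rejoin the antigen receptor loci were followed across age in the goat submandibular gland. The genes are RAG1, RAG2, DNTT, XRCC5, XRCC6, XRCC4, PRKDC, DCLRE1C, LIG4 and NHEJ1, 10 of the 21988 genes in the deposited table. They were chosen by their known role, but with earlier results of these data known, so their comparison with all genes is not an independent one. For each gene the expected counts of all its transcripts, 30 in total, were summed in each library. The 3 lymphoid-only genes (RAG1, RAG2 and DNTT) were set beside the 7 repair genes that are used in all cell types.

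The study sequenced submandibular gland RNA of 9 healthy female Lubo goats kept under the same conditions. Group A held 3 goats aged 1 month, group B held 3 goats aged 12 months and group C held 3 goats aged 24 months, with 1 library per goat. The RNA was whole-gland RNA freed of ribosomal RNA, taken after slaughter, and no cell type was sorted. In such bulk samples fewer cells of a type and less RNA per cell cannot be told apart.

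V(D)J recombination assembles the variable part of T cell and B cell receptors from separate gene segments. The RAG1 and RAG2 proteins form the recombinase that cuts DNA at the segment borders, and they are made in developing lymphocytes in the thymus and the bone marrow, where the DNTT product TdT adds bases to the joins. The breaks are then closed by classical non-homologous end joining, the repair route that every cell uses for double-strand breaks: the Ku70 and Ku80 proteins (XRCC6 and XRCC5) bind the ends, DNA-PKcs (PRKDC) activates the nuclease Artemis (DCLRE1C) to open the hairpin ends, and DNA ligase IV (LIG4) with its partners XRCC4 and XLF (NHEJ1) seals them.

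The total expected count per library was 1.15e+07 to 2.49e+07. Levels are given as CPM, counts scaled to library size with TMM, a factor that corrects for library composition, and 3 counts, taken as the floor of detection, were worth 0.149 to 0.196 CPM. Replicate 2 of group A stood apart from all the other libraries. Its 10 salivary gland markers summed to 130 CPM, against 15086 and 7931 CPM in replicates 1 and 3 of group A and 41065 to 68226 CPM in groups B and C, 9 of the 10 markers were at their lowest in it, and 5 of the 10 (AQP5, BHLHA15, CHRM3, ELF5 and MUC5B) were under 1 CPM. The label of a submandibular gland was therefore not borne out by these markers in that library. The numbers of calls among the 10 genes and the related lists are also given without it, with the values of some single genes. Replicate 3 of group C differed in another way, since 25.1% of its values above 0 were whole numbers against 0.835% to 2.22% in the other libraries.

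RAG1, the larger recombinase subunit that carries the catalytic site, was abundant at 1 month and almost absent afterwards. It stood at 1567, 4348 and 672 CPM in replicates 1, 2 and 3 of group A, at 0.0423, 0.0565 and 0.271 CPM in group B and at 0.840, 0.174 and 0.264 CPM in group C. The groups A and B did not overlap, nor did A and C, and the lowest library of group A lay far above the highest of the older ones. These levels rested on 24119, 81052 and 10277 expected counts at 1 month, on 0.74, 1 and 4.91 at 12 months, and on 14.99, 3.5 and 5 at 24 months. With the counts of a group pooled, RAG1 was 18760.3-fold lower at 12 months than at 1 month (95% interval 8649.7 to 44329, counting error only) and 5665-fold lower at 24 months (3856 to 9127). Without replicate 2 of group A, which holds 81052 of the 115448 pooled counts at 1 month, the ratios were 8986 (4143 to 21236) and 2714 (1847 to 4373). Taken from the lowest library of group A alone, the ratio to pooled group B was 5389.55 and that to pooled group C 1627.

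RAG2, the regulatory subunit that reads the chromatin, followed the same order of ages. Its level was 255, 295 and 116 CPM in group A, 0, 0 and 0.0899 CPM in group B, and 0.300, 0 and 0 CPM in group C. The single library of each older group with any RAG2 count held 1.63 counts at 12 months and 5.35 counts at 24 months, against 1779 to 5507 counts at 1 month. In the RefSeq annotation the end of C15H11orf74 overlaps RAG2, and how the counting treated strand is not given in the sources used here, so reads of the shared stretch could have been split between them. C15H11orf74 itself was at 11.6 to 33.9 CPM in the older libraries. The pooled ratio was 7436 between groups A and B (95% interval 1677 to 50047) and 2417 between groups A and C (1108 to 7965). The former rests on counts of 1 library that are under the floor, and with group B set to 3 counts it was 4040.2.

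DNTT, whose product TdT adds nucleotides without a template, was at 168, 162 and 69.2 CPM in group A, at 0.0853, 0 and 0 CPM in group B, and at 0.180, 0.117 and 0.211 CPM in group C. The highest older value rested on 4 counts, so that at this depth the older libraries were at or near the floor. The pooled ratio was 4826 between groups A and B (95% interval 1290.1 to 284050) and 803 between groups A and C (417 to 1600.15), where the former again rests on 1 library, with 1.49 counts, and was 2397 with group B set to 3 counts. Of the 9 values of the lymphoid-only genes in each older group, 4 were exactly 0 at 12 months and 2 at 24 months, and the summed counts were 9.77 and 38.39.

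**Figure D1:**
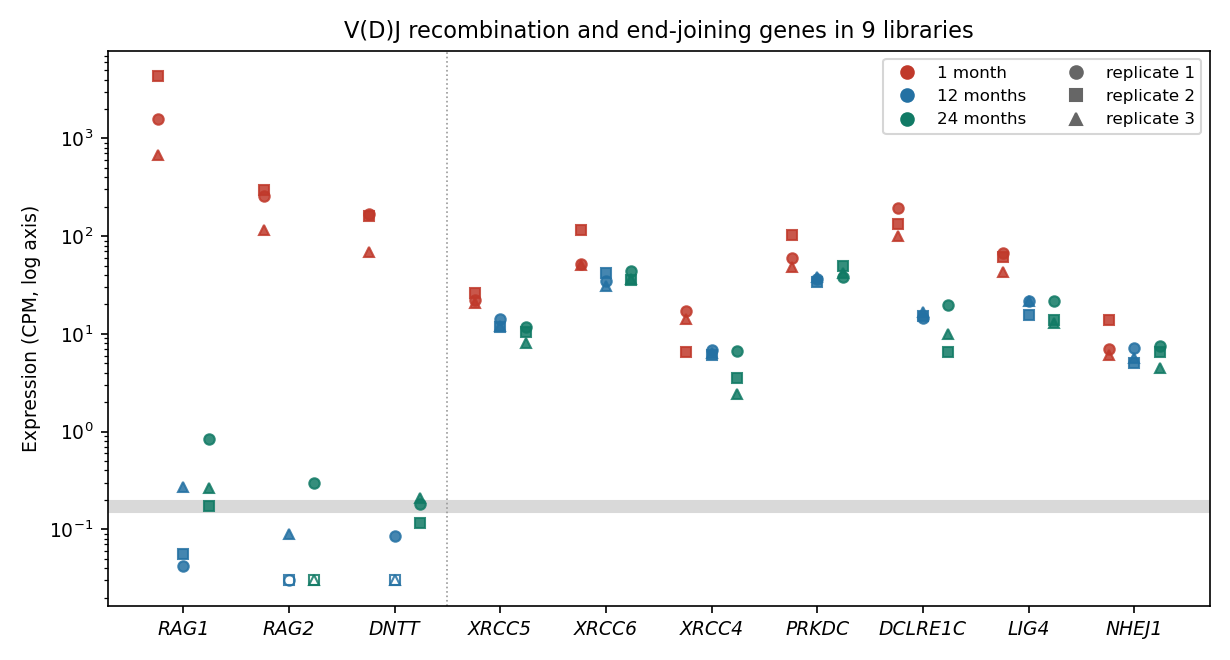
Level of each of the 10 genes in each library, in CPM on a log axis, by age, with 3 libraries per age. Hollow markers are values of 0 drawn at the bottom of the axis. The grey band spans the floor of 3 counts over the libraries (0.149 to 0.196 CPM), and points below the band are under the floor. RAG1, RAG2 and DNTT lie between 69.2 and 4348 CPM at 1 month and under 1 CPM at both older ages, while the other genes stay above 2 CPM in all libraries.

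All 3 lymphoid-only genes fell in both comparisons with group A in edgeR's quasi-likelihood test with Benjamini-Hochberg adjustment over all genes tested. They passed the low-count filter through group A alone, so these tests could only find them lower. Between 1 and 12 months the fitted log2 fold change was -13.93 (SE 1.33) for RAG1, -12.24 (SE 0.99) for RAG2 and -12.27 (SE 0.87) for DNTT, each with an adjusted p of 0.00662. Between 1 and 24 months it was -12.23 (SE 1.26, adjusted p = 0.00301), -11.09 (SE 1.19, adjusted p = 0.00338) and -9.55 (SE 0.67, adjusted p = 0.00219). The fitted size of such low genes depends on the prior count of the model, and the pooled ratios above show how wide counting error alone makes them. The 3 libraries of group A serve in both comparisons, which are therefore not independent.

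Without replicate 2 of group A the falls were still called: the log2 fold change of RAG1 was -12.98 at 12 months and -11.24 at 24 months (adjusted p = 0.000316 and 0.000241 in edgeR's quasi-likelihood test). The values of RAG2 were -12.01 and -10.83, and those of DNTT -12.14 and -9.39. The remaining group A libraries also held thymic epithelium markers. These summed to 160 and 62.9 CPM in replicates 1 and 3, against 0.883 to 2.61 CPM in the older libraries. Leaving out replicate 2 thus did not separate age from such transcripts. Leaving out any 1 library of group B took all 3 genes just past the threshold in the test against 12 months, with adjusted p of 0.0524 to 0.0560 and log2 fold changes of -11.72 or lower, and in these fits with 2 libraries in group B no gene in the table was called.

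Among the repair genes, DCLRE1C showed the widest difference between ages. Artemis, its product, is the nuclease that opens the hairpins RAG leaves. DCLRE1C stood at 195, 132 and 101 CPM in group A, at 14.7, 15.3 and 16.9 CPM in group B, and at 19.9, 6.58 and 9.99 CPM in group C. The 1-month libraries were all above the older ones, with no overlap at either age. DCLRE1C fell to 12 months (log2 fold change -3.13, SE 0.34, adjusted p = 0.00719) and to 24 months (-3.46, SE 0.53, adjusted p = 0.0086, edgeR's quasi-likelihood test). Its call was lost without any 1 library of group B (adjusted p 0.0579 to 0.0608), without replicate 2 of group C (0.0519) and without replicate 3 of group C (0.0600), with log2 fold changes that stayed between -3.33 and -3.07 in these fits. Without replicate 2 of group A they were -3.24 and -3.51 (adjusted p = 0.00109 and 0.0032).

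LIG4, the ligase of the pathway, was at 67.8, 61.8 and 43.1 CPM in group A, 21.9, 15.4 and 21.7 CPM in group B, and 21.8, 13.8 and 12.8 CPM in group C. Every 1-month value was above every older one, by less than in DCLRE1C. LIG4 fell to 12 months (log2 fold change -1.50, SE 0.30, adjusted p = 0.0222) and to 24 months (-1.73, SE 0.39, adjusted p = 0.0236, edgeR's quasi-likelihood test), by less than the fold threshold of the study. With any library of group B left out the adjusted p was 0.0923 to 0.106, and it was 0.119, 0.103 and 0.0701 in the test against 24 months without replicate 2 of group C, replicate 3 of group C and replicate 1 of group A.

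The Ku genes encode the ring that slides onto a broken end. XRCC5 (Ku80) was at 22.2, 25.9 and 20.8 CPM in group A, 14.4, 11.6 and 12.0 CPM in group B, and 11.8, 10.4 and 8.14 CPM in group C. XRCC6 (Ku70) was at 51.9, 115 and 50.5 CPM in group A, 34.8, 42.3 and 31.0 CPM in group B, and 43.9, 35.4 and 36.6 CPM in group C. All 1-month values of both genes were above all older ones, with the highest XRCC6 value in replicate 2 of group A, but neither gene passed the test. For XRCC5 the log2 fold change was -0.80 (SE 0.26, adjusted p = 0.0773) at 12 months and -1.07 (SE 0.37, adjusted p = 0.0835) at 24 months, and for XRCC6 it was -0.97 (SE 0.41, adjusted p = 0.137) and -0.82 (SE 0.44, adjusted p = 0.231), by edgeR's quasi-likelihood test. Without replicate 2 of group A the XRCC6 value at 12 months was -0.50 (adjusted p = 0.0512, same test). With any 1 library left out, it was -1.04 to -0.31 at 24 months.

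PRKDC encodes the catalytic subunit of the DNA-dependent protein kinase, which Ku recruits. Its level was 59.3, 102 and 47.8 CPM in group A, 36.8, 33.6 and 38.3 CPM in group B, and 38.2, 49.3 and 41.6 CPM in group C. The 1-month libraries lay above those of group B and overlapped those of group C, and replicate 2 of group A was again the highest. The log2 fold change was -0.90 (SE 0.36, adjusted p = 0.119) at 12 months and -0.59 (SE 0.41, adjusted p = 0.351) at 24 months in edgeR's quasi-likelihood test.

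XRCC4 and NHEJ1 encode the filament-forming partners of ligase IV. XRCC4 was at 17.1, 6.58 and 14.2 CPM in group A, 6.77, 6.07 and 6.36 CPM in group B, and 6.60, 3.55 and 2.43 CPM in group C. NHEJ1 was at 7.05, 13.8 and 6.05 CPM in group A, 7.15, 5.05 and 5.63 CPM in group B, and 7.50, 6.46 and 4.49 CPM in group C. Both genes overlapped between ages, and they differed in replicate 2 of group A, where XRCC4 was lowest of the 1-month libraries and NHEJ1 highest. The log2 fold change of XRCC4 was -0.91 (SE 0.40, adjusted p = 0.143) at 12 months and -1.48 (SE 0.55, adjusted p = 0.102) at 24 months. That of NHEJ1 was -0.56 (SE 0.44, adjusted p = 0.380) and -0.45 (SE 0.50, adjusted p = 0.569), by edgeR's quasi-likelihood test, and the 24-month value turned to 0.014 without replicate 2 of group A.

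**Figure D2:**
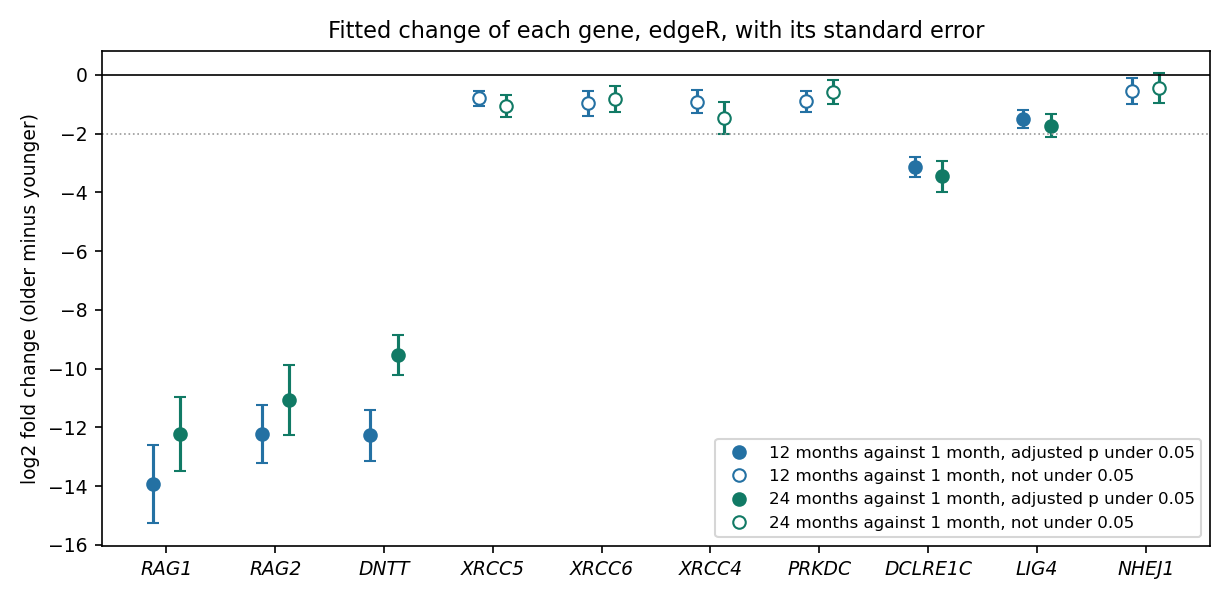
Fitted log2 fold change of each of the 10 genes at 12 and at 24 months against 1 month, with bars of 1 standard error and 3 libraries per age. Filled points have an adjusted p under 0.05 in edgeR's quasi-likelihood test. The 3 lymphoid-only genes lie between -13.93 and -9.55, DCLRE1C at -3.13 and -3.46, LIG4 at -1.50 and -1.73, and the others between -1.48 and -0.45 with open points.

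By the study's thresholds (a log2 fold change beyond 2 in either direction and an adjusted p under 0.05), 4 of the 10 genes fell in each comparison with group A and all 10 fitted values were below 0. The 4 genes were RAG1, RAG2, DNTT and DCLRE1C. Of these, RAG1, RAG2 and DNTT passed the low-count filter through group A alone, so they could be called only as lower. Of all genes tested, 9.10% were called lower and 1.94% higher at 12 months, and 8.59% lower and 3.94% higher at 24 months. With the adjusted p alone, 5 of 10 fell in both comparisons (LIG4 in addition), against 11.3% and 9.80% of all genes. The groups did not overlap, with the older libraries lower, for 8 of 10 genes at 12 months and 7 of 10 at 24 months, where the share over all genes was 26.6% and 23.3%. The median log2 fold change over the 10 genes was -1.23 at 12 months and -1.60 at 24 months, while over all genes tested it was -0.02 and -0.0038.

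Without replicate 2 of group A, 8 of the 10 genes passed an adjusted p under 0.05 in edgeR's quasi-likelihood test at 12 months, XRCC5 (log2 fold change -0.76, adjusted p = 0.0156), XRCC4 (-1.29, adjusted p = 0.00508) and PRKDC (-0.56, adjusted p = 0.0257) in addition. The share of all genes past that threshold then rose to 41.7% in either direction, from 17.2% with all libraries. At 24 months 6 genes passed, XRCC4 (-1.80, adjusted p = 0.0287) in addition, with 25.9% of all genes past the threshold against 16.3%. The 4 genes called by the study's thresholds were called without this library too, in both comparisons.

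Between groups B and C no gene of the 10 was called. RAG1, RAG2 and DNTT were too low to be tested. The other 7 had log2 fold changes from -0.57 (XRCC4) to 0.29 (PRKDC) and adjusted p of 0.506 to 0.886 in edgeR's quasi-likelihood test, 0 of 7 had an unadjusted p under 0.05, and 0 were called by DESeq2 or by edgeR's exact test. The share called over all 14530 genes tested was 0.00% by both thresholds, although 1497 genes had an unadjusted p under 0.05 and DESeq2 and the exact test called 13 and 17 genes. A p that misses the threshold does not show that levels were equal. Without replicate 1 of group C, DCLRE1C had a log2 fold change of -0.88 (adjusted p = 0.0369), in a fit where 29.2% of all genes passed an adjusted p under 0.05.

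The 3 goats of group A did not carry the 10 genes in one fixed order. Replicate 2 was highest for 6 genes (RAG1, RAG2, XRCC5, XRCC6, PRKDC and NHEJ1), replicate 1 for the other 4 (DNTT, XRCC4, DCLRE1C and LIG4), and replicate 3 was lowest for all but XRCC4. From replicate 1 to replicate 2 RAG1 differed 2.77-fold, RAG2 1.16-fold and DNTT 0.965-fold. The T lineage gene CD3E, a chain of the T cell receptor complex that thymocytes also express, differed 6.96-fold between the same libraries. The excess of replicate 2 was greater for CD3E than for any of the 10 genes. This did not hold for every chain of the complex. CD3D was also higher in replicate 2 than in replicate 1 (1189 against 222 CPM), but CD3G was lower (128 against 164 CPM).

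The gland could hold other cell types, and their markers moved with the lymphoid-only genes. The 11 thymocyte markers summed to 2115, 10678 and 1222 CPM in group A, 35.2 to 42.2 CPM in group B and 47.4 to 63.1 CPM in group C. Of these, 10 of 11 fell in each comparison, beside the 9.10% and 8.59% of all genes called lower at 12 and 24 months. PTCRA and ARPP21 among them passed the low-count filter through group A alone and could be called only as lower. The calls of the thymocyte markers and of the marker lists below include replicate 2 of group A. The 5 thymic epithelium markers summed to 160, 643 and 62.9 CPM in group A and to 0.883 to 2.61 CPM in groups B and C, with 4 of 4 tested genes lower. FOXN1, PSMB11 and PRSS16 passed the low-count filter through group A alone, and AIRE was too low to be tested. The count of lower genes in this list was thus largely fixed by the filter. FOXN1, the factor that defines thymic epithelium, was at 11.4, 73.2 and 4.59 CPM at 1 month and at 0 in all 6 older libraries, and AIRE was at 0 in all of them too.

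Other markers moved as well. The 10 proliferation markers summed to 1353, 3432 and 1154 CPM in group A, 69.8 to 102 CPM in group B and 61.8 to 86.3 CPM in group C, with 9 and 10 of 10 called lower. Of all genes, 9.10% and 8.59% were called lower at 12 and 24 months, and 1.94% and 3.94% higher. The 8 B cell markers, of which 6 were found, summed to 58.2, 298 and 135 CPM in group A, 27.2 to 29.7 CPM in group B and 18.1 to 37.6 CPM in group C, and 3 of 6 fell in each comparison. MS4A1 among them passed the low-count filter through group A alone. Of the salivary gland markers 2 of 10 (LPO and MUC5B) were called higher in each, MUC5B at 24 months with overlapping groups, and KRT14, a basal cell keratin, had a log2 fold change of -1.55 and -1.07 without passing the test. The part of these cell types in the levels of the 10 genes was not tested.

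**Figure D3:**
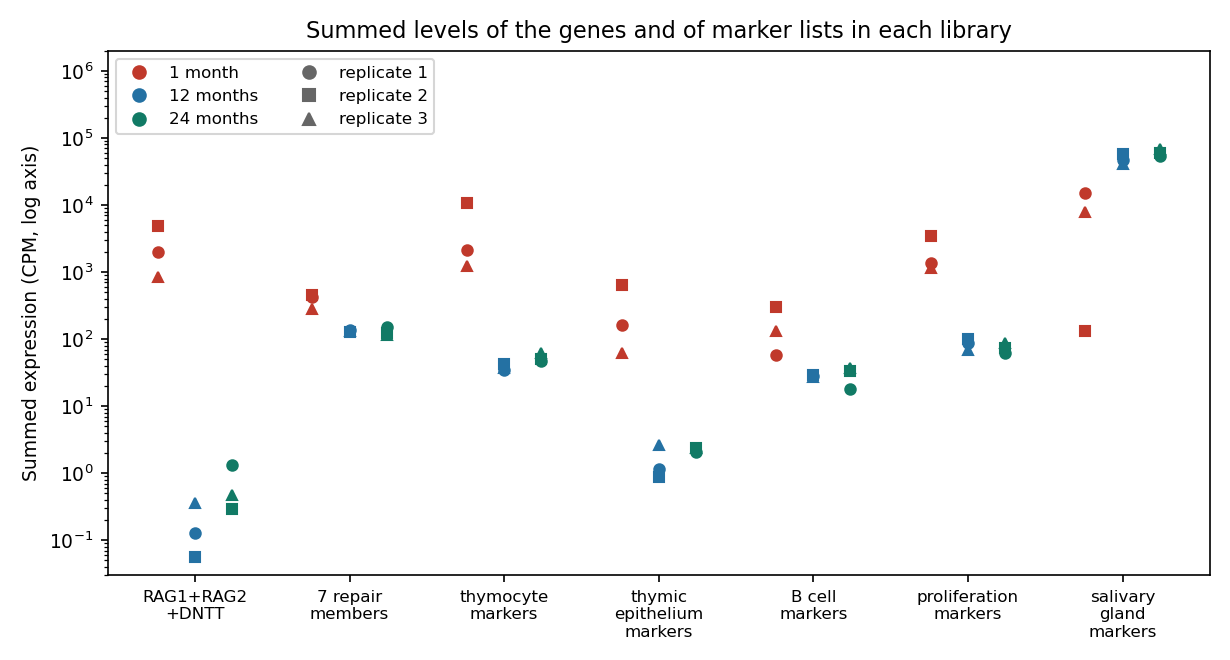
Summed level of each marker list and of the lymphoid-only and ubiquitous genes in each library, in CPM on a log axis, by age, with 3 libraries per age. Thymocyte, thymic epithelium and proliferation markers are highest in replicate 2 of group A, as is the lymphoid-only sum (4805 CPM), while the salivary gland markers are lowest there (130 CPM).

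Ratios within a library set the recombination genes beside CD3E. The ratio of RAG1 to CD3E was 9.51, 3.79 and 5.45 in group A, at most 0.214 in group B and at most 0.246 in group C. That of RAG2 to CD3E was 1.55, 0.258 and 0.944 in group A, at most 0.214 in group B and at most 0.0877 in group C, where 3 and 2 libraries had RAG2 set to the floor and the ratios are upper limits. RAG1 and RAG2 were thus lower relative to CD3E in every older library than in every 1-month library, while DNTT to CD3E (1.02, 0.141 and 0.562 in group A) overlapped the limits of group B and lay above group C (at most 0.0667). The overlap rested on replicate 2 of group A and replicate 2 of group B, whose limit was 0.214 with CD3E at 14.05 counts. The other limits of group B were 0.0672 and 0.0720. Ratios to other T lineage genes were not taken, so this contrast of DNTT with the RAG genes is tied to CD3E.

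DNTT belongs to a family of polymerases with POLL and POLM, which fill gaps during end joining in other cells. DNTT to POLM was 70.6, 22.1 and 29.4 in group A and at most 0.333 in the older libraries. XRCC5 to XRCC6, PRKDC to XRCC6 and LIG4 to XRCC4 overlapped between all pairs of ages, for instance 0.428, 0.224 and 0.411 for XRCC5 to XRCC6 in group A, 0.275 to 0.413 at 12 months and 0.223 to 0.294 at 24 months. Over the 27 comparisons of 9 ratios the smallest two-sided p of an exact permutation test was 0.1, the lowest that 3 against 3 libraries allow, and the smallest adjusted p was 0.225, so that no ratio could pass 0.05.

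**Figure D4:**
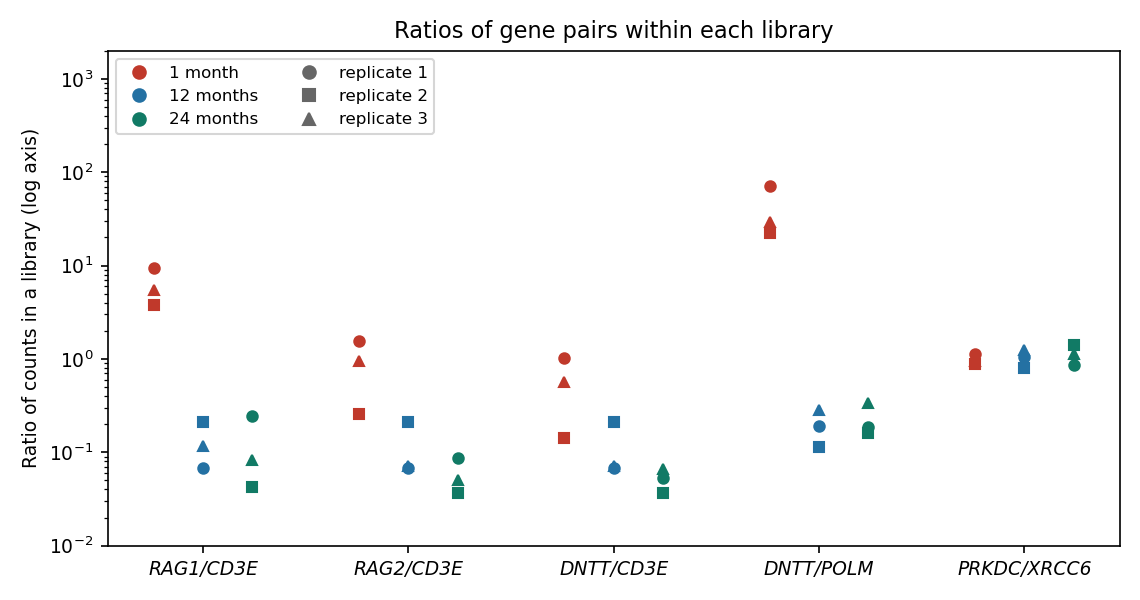
Ratio of 2 genes within each library, on a log axis, by age, with 3 libraries per age and genes at or under 3 counts set to 3. The ratios of RAG1 and RAG2 to CD3E and of DNTT to POLM are lower in all 6 older libraries than in any 1-month library, and the ratios among repair genes overlap between ages.

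The transcripts behind each gene differed in weight. The known RAG1 transcript held 26.2% to 30.7% of RAG1 counts in group A and a newly assembled one the other 69.3% to 73.8%, a split that was alike in the 3 goats. For RAG2 the known transcript held 10.0%, 43.3% and 26.5%, a wider spread, and the only RAG2 counts at older ages were on the new transcript. DNTT and XRCC5 have 1 transcript each in the table. The main DCLRE1C transcript of 9 held 71.2% to 89.0% of the gene at 1 month, and 2 of the 6 known ones were at 0 in all libraries. LIG4 was spread over 4 transcripts, of which 1 held 35.8% to 63.4% at 1 month and was at 0 in replicates 2 and 3 of group C. With known transcripts alone, the calls of the 10 genes kept their number, 4, 4 and 0.

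The wider repair network was read from 6 lists with 61 genes, of which 59 were found and 56 tested against group A. At 12 months 15 of 56 fell and at 24 months 14 of 56 fell, beside the 9.10% and 8.59% of all genes called lower. None was called higher, also by DESeq2 and edgeR's exact test, although 10 and 8 of the 56 had a fitted value above 0. The median log2 fold change was -0.95 and -0.76. Between groups B and C 0 of 55 were called by edgeR's quasi-likelihood test, with 2 at an unadjusted p under 0.05, and 0 by DESeq2 or the exact test. In the tests that left out a library of group B, 0 of 56 were called. Without replicate 2 or 3 of group C the calls were 8 and 6, where 2.21% and 1.53% of all genes were called. Without replicate 2 of group A, 13 were called at 12 months and 12 at 24 months, and 30 and 21 passed the adjusted p alone. Of all genes in these fits, 12.0% and 13.3% were called in either direction, and 41.7% and 25.9% passed the adjusted p alone.

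Of the other end-joining genes, 1 of 9 fell at 12 months, TDP1 (an enzyme that clears blocked 3′ ends; log2 fold change -2.10, adjusted p = 0.0442 in edgeR's quasi-likelihood test). At 24 months the TDP1 value was -1.51 (adjusted p = 0.0967 in the same test) and 0 of 9 were called. Of all genes, 9.10% and 8.59% were called lower at 12 and 24 months, so this list did not stand out by its calls. POLL was at 4.90, 3.83 and 4.79 CPM in group A, 6.35, 6.64 and 7.98 CPM in group B, and 7.14, 10.8 and 8.77 CPM in group C, higher in each older library but with an adjusted p of 0.160 and 0.112. POLM was at 2.37, 7.30 and 2.35 CPM in group A and at 0.586 to 1.48 CPM in the others (adjusted p = 0.0864 and 0.0729). PAXX, a partner of Ku, overlapped between all ages (5.74 ± 4.65 CPM in group A, SD over 3 libraries, and 1.56 to 7.45 CPM in the others).

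Of 13 break sensing and end protection genes, 1 was called at each age, no more than the 9.10% and 8.59% of all genes called lower. H2AX, the histone variant phosphorylated at breaks, was called at 12 months (log2 fold change -5.78, adjusted p = 0.0173 in edgeR's quasi-likelihood test). At 24 months it was SHLD1, a shieldin subunit that protects ends (-2.18, adjusted p = 0.0278, same test). The values at the other age were -5.15 for H2AX (adjusted p = 0.0695) and -1.76 for SHLD1 (adjusted p = 0.0396), and a difference between the ages was not called for either gene. ATM, the kinase that signals RAG breaks, was at 107, 19.6 and 92.4 CPM in group A, 131 ± 9.66 CPM in group B (SD over 3 libraries, lowest 124 CPM), and 152, 40.9 and 52.0 CPM in group C. The lowest ATM value was in replicate 2 of group A, which also was the library with the highest RAG1. TP53BP1, which recruits end-protection factors, was at 57.4 to 109 CPM in group A and 56.4 to 73.2 CPM in the others, and neither gene passed the test.

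Homologous recombination, the repair route of dividing cells, had 5 of 12 genes lower in each comparison, among them BRCA1, BRCA2, BARD1 and RAD54L. BRCA1, which promotes this route at broken ends, was at 61.7, 57.6 and 43.2 CPM in group A and 3.01 to 7.98 CPM in the older libraries (log2 fold change -3.45 and -3.27, adjusted p = 0.00856 and 0.00751 in edgeR's quasi-likelihood test). Of the alternative end-joining genes only POLQ, 1 of 5, fell in each comparison (log2 fold change -2.78 and -3.44, adjusted p = 0.00946 and 0.011 in edgeR's quasi-likelihood test), from 18.8 to 30.4 CPM in group A to 0.757 to 4.71 CPM later. Of the class switching genes, 1 of 4 tested was called in each, EXO1 (-4.99 and -6.30), which passed the low-count filter through group A alone. Of all genes, 9.10% and 8.59% were called lower at 12 and 24 months. A single call in a list of 4 or 5 genes does not set that list apart from this share.

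Of the cofactors and regulators of RAG, 6 of 13 tested genes fell in each comparison, beside 9.10% and 8.59% of all genes called lower. The high-mobility protein gene HMGB2, whose product bends DNA for the recombinase, was at 105, 281 and 114 CPM in group A and 8.09 to 17.0 CPM in the others (log2 fold change -3.74 and -4.07, adjusted p = 0.0119 and 0.00561, edgeR's quasi-likelihood test). HMGB1 (-1.46 and -1.89, adjusted p = 0.031 and 0.0238 in the same test) changed by less than the fold threshold. The transcription factor genes MYB (-7.53 and -7.38), BCL11B (-7.15 and -6.53), IKZF1 (-5.77 and -5.48) and PAX5 (-4.64 and -4.56) fell in both. The sixth was TCF3 at 12 months (-2.29, adjusted p = 0.0386), with -2.05 at 24 months (adjusted p = 0.0501), and TCF12 at 24 months (-2.01, adjusted p = 0.0254), with -1.86 at 12 months (adjusted p = 0.0269). FOXO1 (-0.14 and -0.33) and EBF1 (-0.17 and -0.46), which act on RAG expression in B cell precursors, did not pass the test.

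**Figure D5:**
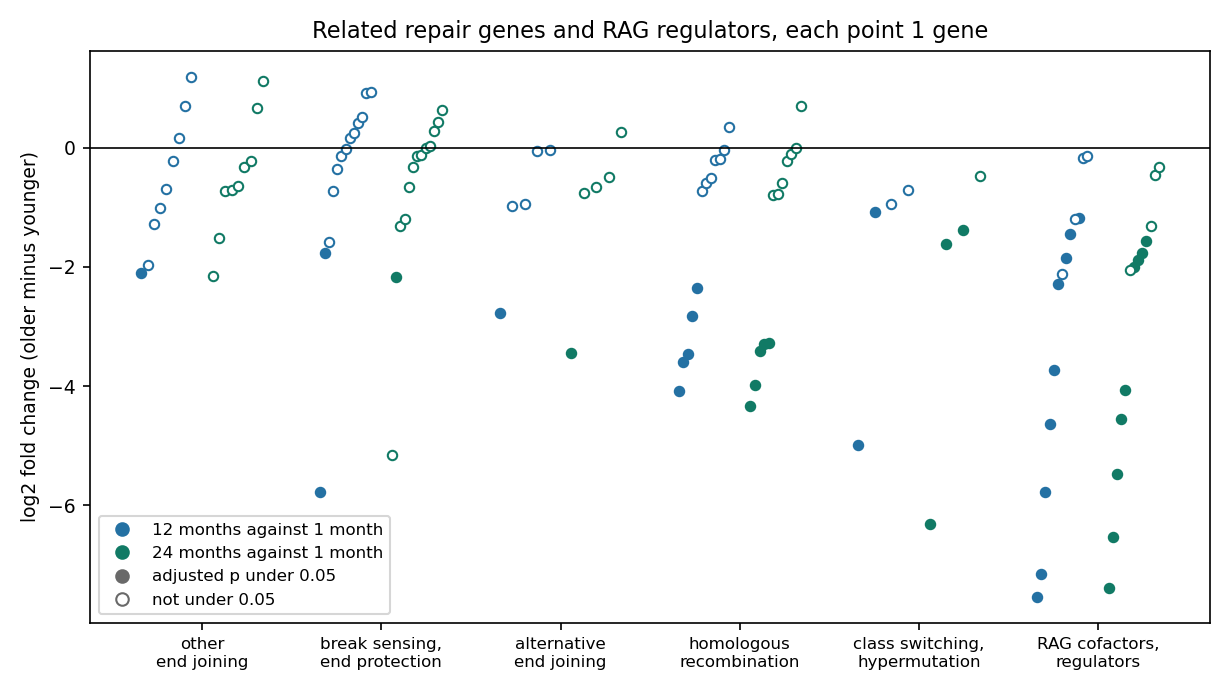
Fitted log2 fold change of the tested genes of the 6 related lists at 12 and at 24 months against 1 month, with 3 libraries per age. Filled points have an adjusted p under 0.05 in edgeR's quasi-likelihood test. The lowest values belong to RAG regulators (MYB at -7.53 and BCL11B at -7.15 at 12 months), and all filled points lie below 0.

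RAG1 was compared with all other genes of mean CPM of at least 1 by Pearson correlation of log2(CPM + 1) over the 9 libraries, which share the age groups and differ in depth and cell content. Of 14379 genes, the most alike were TRGV3 and ARPP21 (r = 0.999), DEPDC1B, THEMIS and RIMBP2 (r = 0.998). TRGV3 is a T cell receptor gamma variable segment, and THEMIS is a T cell signalling gene of the thymus. TRGV3 was at 19.5, 27.4 and 14.3 CPM in group A and at most 0.211 CPM in the older groups, and ARPP21 at 148, 309 and 66.9 CPM and at most 0.180 CPM. Both had replicate 2 of group A as the highest library, as RAG1 did, which follows from picking them by likeness to RAG1 in these same libraries.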

How the data were processed

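Libraries of total RNA without ribosomal RNA were sequenced by the authors, and 1 sample per goat was deposited for 9 goats. The authors deposited expected counts for each transcript, made with RSEM and not normalized for depth or length. The submitters' processing notes name Bowtie2 2.2.8, TopHat2 2.1.1 and Cufflinks, and the genome build is not given in the sources used here. Known identifiers were matched to the RefSeq table of assembly ARS1.2 (42652 of 42686), used for names and neighbouring genes only. DCLRE1C, MRE11, PAXX, SHLD1, SHLD2 and H2AX stand there under other symbols and were found by product or older name after the data had been seen. Transcripts with no gene name (436, with 0.251% to 6.01% of counts per library) were left out.

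Counts were summed per gene and rounded to whole numbers. Each pair of ages was fitted with its 6 libraries in edgeR 4.0.16 (R 4.3.3): low genes were removed with filterByExpr, sizes were set by TMM, and glmQLFTest was run after glmQLFit. Adjustment was by Benjamini-Hochberg across the 15106, 15183 and 14530 genes tested. Called genes had an adjusted p below 0.05 with a log2 fold change beyond 2 in size, without the FPKM rule of the study. Standard errors are the log2 fold change divided by the square root of the F value. CPM use TMM sizes over all 9 libraries. Ratios were compared by a two-sided exact permutation test (scipy 1.17.1). Libraries come from different goats, so p-values measure the spread between libraries of different animals. In group A that spread includes replicate 2, whose gland label the markers did not bear out, and is not spread between animals alone. Pooled ratios carry 95% intervals for counting error only.

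The members and lists were chosen with earlier results of these data known. Named are the 10 genes, POLL, POLM, PAXX, ATM and TP53BP1, up to 6 called genes per related list by size of change, the 5 genes most like RAG1, and marker genes where a list is described. HMGB1, FOXO1, EBF1, CD3E as a reference, and CD3D and CD3G beside it were named beyond this after their values were seen. On simulated data with 3 libraries per group, the test called 73.8% of genes changed by a log2 of 3 and 94.6% of those changed by 4 at 12 months against 1 month, with 6 false calls among 15106 genes, and 62% and 85.9% at 24 months against 1 month, with 8 false calls among 15183 genes. Alternatives were other size factors, upper-quartile factors, no low-count filter, DESeq2 1.42.0, edgeR's exact test, all 9 libraries in one fit, a replicate block, known transcripts only and each library left out. Pooled ratios without replicate 2 of group A were added after seeing the data. Promoter and protein features were not analysed here, and single-gene results that are withheld are not reported here.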

Additional observations from a re-analysis of the deposited data

How the results depend on the processing

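The number of the 10 genes called (4, 4 and 0 for 12 against 1, 24 against 1 and 24 against 12 months) was the same under all alternatives that kept the 9 libraries. Leaving out 1 library moved it to 0 to 4, 3 to 4 and 0 to 0, and the calls among the related genes to 0 to 17, 6 to 16 and 0 to 0. The count fell to 0 where 1 library of group B was left out, when none of all genes was called although 5 to 6 of the 10 genes had an unadjusted p under 0.05. The number of non-overlapping gene pair ratios was 12 to 15, against 12 with all libraries. With the replicate number as a block, the calls were 4, 4 and 0 and LIG4 at 12 months missed the threshold (adjusted p = 0.0862). The numbers do not pair the goats (correlation of same-numbered libraries -0.17 to 0.303, best with their own number in 1 of 9 cases), and over all genes the block called 762 at 12 months against 1667 without it. DESeq2 and edgeR's exact test called 2469 and 2258. DESeq2 passed XRCC5 in both comparisons with group A (adjusted p = 0.0196 and 0.0362) and XRCC4 at 24 months (0.0481), and the fit of all 9 libraries passed XRCC5 (0.0136) and XRCC4 (0.0344) at 24 months. NHEJ1 changed sign without passing the test. With 1 library left out it was -0.68 to 0.014 at 24 against 1 month (positive without replicate 2 of group A) and -0.061 to 0.24 at 24 against 12 months (negative without replicate 2 of group B or replicate 1 of group C), and with known transcripts only it was -0.33 at 24 against 12 months. The cause was not tested. Depth limits the lymphoid-only genes at older ages, where values under 0.149 to 0.172 CPM rest on fewer than 3 counts.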

Other observations

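RAG1 and RAG2 lie side by side between TRAF6 and C15H11orf74 in the RefSeq annotation of assembly ARS1.2, and these neighbours were looked at after the values of the RAG genes were known. TRAF6, a signalling adaptor, was at 19.9, 26.8 and 18.5 CPM in group A, 19.4, 20.9 and 19.4 CPM in group B and 15.2, 24.9 and 16.8 CPM in group C, with a log2 fold change of -0.08 in both comparisons with group A. C15H11orf74 was at 13.6, 1.30 and 8.09 CPM in group A, 24.8, 33.9 and 26.1 CPM in group B and 27.5, 15.8 and 11.6 CPM in group C (log2 fold change 1.96 and 1.38, adjusted p = 0.103 and 0.237 in edgeR's quasi-likelihood test). Neither neighbour passed the test.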
